A study of Mus musculus with 4 samples.

Results

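Nuclei that carry Drd3 RNA, the message of the dopamine receptor D3, were picked out of single-nucleus RNA sequencing of mouse cortex. A nucleus was a member when its unique molecular identifiers (UMIs, each the tag of 1 captured RNA molecule) met 6 conditions. It had at least 1 UMI of Gad1 or Gad2, none of Slc17a7, at least 1 of Rarb, at least 1 of Drd3, at least 1 of Strip2, Gpr149 or Adam12, and none of Drd2 or Adora2a. In all, 414 of 35694 nuclei met them, with 74 and 104 in the Control libraries and 150 and 86 in the CrT-KO libraries. They are called Drd3 nuclei here. The members were chosen by the UMIs of these 10 genes, so the levels of those genes are given as a description with no test.

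The study asked how loss of the creatine transporter alters the transcriptome of brain cell types. CrT-KO animals (CrT-/y) were hemizygous males that carry a deletion of several exons of the X-linked gene Slc6a8 in all their cells, and Control animals (CrT+/y) were wild-type male littermates. All were adult mice on a C57Bl/6J background with no treatment. Each of the 4 libraries came from the right-hemisphere cortex of 1 animal, 2 animals per genotype, so every statement on genotype rests on 2 animals against 2.

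Dopamine receptors fall into a family that raises cyclic AMP, with D1 and D5, and a family that lowers it, with D2, D3 and D4. In the striatum most projection neurons are GABAergic and carry either D1, often with the peptides substance P (Tac1) and dynorphin (Pdyn), or D2, with enkephalin (Penk) and the adenosine receptor Adora2a. D3 is found mainly in the ventral striatum, that is the nucleus accumbens, the olfactory tubercle and the islands of Calleja, which are clusters of small densely packed granule cells, and it is often found in cells that also carry D1. Rarb, a retinoic acid receptor, is a marker of striatal projection neurons.

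The 4 libraries held 8282 to 9295 nuclei and 51507483 to 65240843 UMIs, with medians of 5548 to 6700.5 UMIs per nucleus. Summed over Drd3 nuclei, Control 1 and Control 2 held 394488 and 630015 UMIs, CrT-KO 1 and CrT-KO 2 held 955994 and 482414, and the medians of 4946, 5663.5, 6071.5 and 5110 UMIs lay on both sides of each other across genotypes. Any 2 libraries shared 12 to 19 barcodes. Scrublet marked 2.91% to 4.17% of all nuclei of a library as doublets, and 3, 5, 5 and 4 of the Drd3 nuclei.

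Of the targeted gene Slc6a8, which imports creatine (chromosome X, 73673150 to 73682502, plus strand, GRCm38), 5 UMIs were found in the Drd3 nuclei of each Control library, 2 in those of CrT-KO 1 and 1 in those of CrT-KO 2. Both CrT-KO libraries, at 2.09 and 2.07 CPM (counts per 1000000 UMIs of the same nuclei), lay below both Control libraries, at 12.7 and 7.94 CPM. The gene was too low for the fit across genes. With no filter edgeR put it at -2.12 on the log2 scale (SE 0.93, unadjusted p = 0.0230, adjusted p = 0.961). So no difference passed the test over all genes in these 414 nuclei with 13 UMIs. The unadjusted p was 0.143 in DESeq2, and 0.363 in edgeR with the nuclei of the main clusters described further on. Of the 13 UMIs 5 lay in the 45 Drd3 nuclei described further on that sat outside the main clusters, all 5 in Control libraries, and 8 (2 and 3 against 2 and 1) in the rest. Of the other creatine genes, the brain creatine kinase Ckb was at 50.7 and 33.3 CPM against 33.5 and 31.1 CPM, and the mitochondrial kinase Ckmt1 at 12.7 and 15.9 against 15.7 and 22.8 CPM, with overlapping libraries in both. Gatm, the first enzyme of creatine synthesis, held 2, 4, 8 and 4 UMIs, Gamt, the second, 1 UMI in all, Ckmt2 25 UMIs and the muscle kinase Ckm 0.

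The conditions removed nuclei in steps. Of 8437 nuclei with Gad1 or Gad2, the enzymes that make GABA, 7415 had no Slc17a7, the glutamate transporter of excitatory neurons, and 3576 of these had Rarb. Drd3 was found in 571 of the 3576, the term on Strip2, Gpr149 and Adam12 left 482, and the absence of Drd2 and Adora2a left 414. Just inside the Drd3 threshold were 211 members with exactly 1 Drd3 UMI, while 203 had 2 or more, up to 10. Just outside it were 1035 nuclei that met every other condition with no Drd3 UMI. A further 79 nuclei failed only on Strip2, Gpr149 and Adam12, and 68 failed only on Drd2 or Adora2a.

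A single UMI can also come from free RNA in the droplet, so the genes of the rule were read in cells that should lack them. A Drd3 UMI was present in 0.194% of 4121 oligodendrocyte nuclei (median depth 1377 to 1527 UMIs per library) and in 0.223% of 4928 excitatory nuclei (8624.5 to 10350 UMIs). Rarb was less selective, with a UMI in 4.97% of oligodendrocyte nuclei and 20.4% of excitatory nuclei, at 46.0 and 36.7 CPM. Strip2, Gpr149 and Adam12 had a UMI in 1.07%, 0.437% and 3.47% of oligodendrocyte nuclei and in 12.3%, 1.32% and 6.03% of excitatory nuclei. In 3839 nuclei with Gad1 or Gad2 and neither Slc17a7 nor Rarb, Drd3 had a UMI in 2.32%. Strip2, Gpr149 and Adam12 had one in 5.11%, 5.47% and 14.8% of them. Whether these nuclei lack the genes was not tested. In the Drd3 nuclei Rarb stood at 2200, 1816, 1827 and 2029 CPM in Control 1, Control 2, CrT-KO 1 and CrT-KO 2. Drd3 (chromosome 16, 43754026 to 43822932, plus strand, with no other counted gene over it) stood at 317, 324, 327 and 342 CPM. Drd1, which the rule did not use, had a UMI in 22.9% of Drd3 nuclei, 19.3% to 27.9% per library, against 0.218% of oligodendrocyte and 1.87% of excitatory nuclei.

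The label was checked against marker lists. All 20 listed markers of striatal projection neurons were detected in the Drd3 nuclei, and summed to 12381, 11130, 10790 and 11254 CPM in the 4 libraries, against 10544 to 11803 CPM in the Drd1 nuclei and 12889 to 14474 CPM in the Drd2 nuclei described further on. The tissue is labelled as cortex, and these nuclei carry striatal transcripts; where they lay in the tissue, ventral or not, was not measured. Of 8 excitatory markers 7 were detected (638 to 842 CPM), with Slc17a7 at 0 by rule. All 11 interneuron markers were detected, at 3518 to 4206 CPM, of which Erbb4 alone made up 2096 to 2768 CPM. That sum lay below the 4578 to 5676 CPM of Drd1 nuclei and above the 1027 to 1432 CPM of Drd2 nuclei. Cholinergic markers stood at 0 to 3.17 CPM with Slc18a3 at 0, oligodendrocyte markers at 87.9 to 210 CPM, precursor markers at 6.22 to 25.3 CPM with Olig1 at 0, astrocyte markers at 39.7 to 108 CPM, microglia markers at 32.4 to 55.8 CPM, vascular markers at 0 to 10.5 CPM with Pdgfrb at 0, and immature neuron markers at 76.0 to 121 CPM.

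Drd3 nuclei made up 0.894% (95% Wilson interval 0.712 to 1.12) and 1.12% (0.924 to 1.35) of all nuclei in the Control libraries. In the CrT-KO libraries they made up 1.62% (1.38 to 1.90) and 0.972% (0.788 to 1.20). CrT-KO 1 stood above the other 3 libraries, and CrT-KO 2 lay between the Control libraries. The means were 1.01% ± 0.159 (SD, n = 2) and 1.30% ± 0.457 (SD, n = 2), a difference of 0.289 percentage points, which is smaller than the spread between the CrT-KO animals (exact two-sided permutation test, p = 0.667). With 6 ways to assign the libraries the smallest p this design allows is 0.333. Without CrT-KO 1 the difference was -0.0341 percentage points. Intervals cover counting error only.

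**Figure D1:**
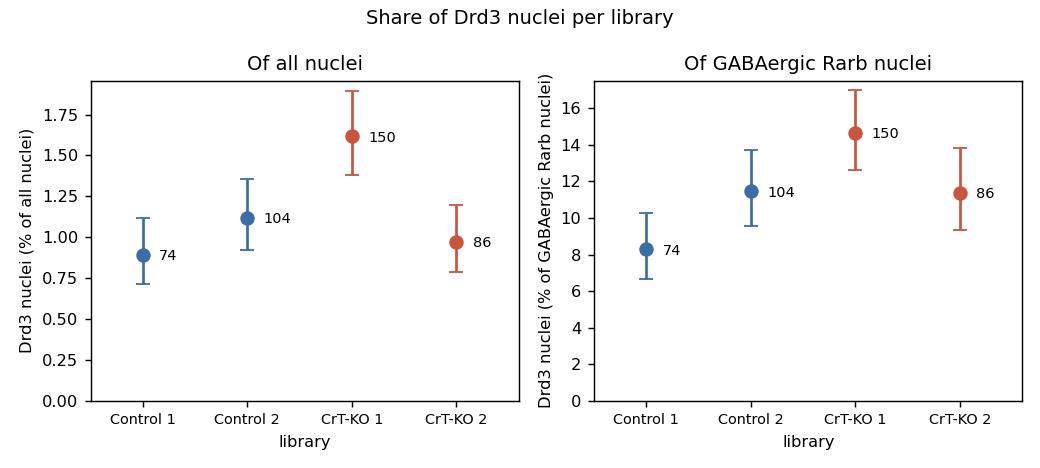
Share of Drd3 nuclei in each library (percent), of all nuclei on the left and of nuclei with Gad1 or Gad2, no Slc17a7 and Rarb on the right. Points are libraries labelled with their number of Drd3 nuclei, bars are 95% Wilson intervals, and CrT-KO 1 is the highest library in both panels, at 1.62% and 14.7%.

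As a share of the 3576 GABAergic Rarb nuclei, Drd3 nuclei made up 8.30% and 11.5% in Control and 14.7% and 11.4% in CrT-KO (exact permutation test, p = 0.667). Control 2 and CrT-KO 2 were all but level on this denominator.

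To see whether the Drd3 nuclei were 1 kind of nucleus, the 3576 GABAergic Rarb nuclei were clustered without Drd1 and the genes of the rule. They formed 15 clusters, and 369 of the 414 Drd3 nuclei fell in 5 of them. Each cluster is named here by its first 2 leading genes, and its levels are a description, since the same counts defined it. The Fign-Gfra1 cluster held 129 Drd3 nuclei (31.2%), the Pde1c-Prkch cluster 74, the Chst9-Vwc2l cluster 73, the Stac-Rreb1 cluster 70 and the Ebf1-Impg1 cluster 23. The other 45 Drd3 nuclei were spread over 8 more clusters.

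The Stac-Rreb1 cluster was the one made mostly of Drd3 nuclei, with 70 of its 105 nuclei (66.7%). In the Fign-Gfra1 cluster the share was 45.1%, in the Pde1c-Prkch cluster 29.4%, in the Chst9-Vwc2l cluster 26.1% and in the Ebf1-Impg1 cluster 5.37%. All 105 nuclei of the Stac-Rreb1 cluster stayed together, with no others added, at clustering resolutions of 0.3 and 1.0. Its Drd3 nuclei were shallow, with a median of 2959.5 UMIs against 5749 to 6382 in the other 4 clusters.

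Drd3 itself stood at 834 CPM in the Drd3 nuclei of the Stac-Rreb1 cluster (763 to 881 over the 4 libraries) and at 209 to 319 CPM in those of the other 4. Every member had to show a Drd3 UMI, and the part of the lower depth in this gap was not tested. Genes outside the rule differed more. Sgcd, which encodes delta-sarcoglycan of the dystrophin complex, stood at 14874.5 CPM, against 647 to 1708 CPM in the other 4. Stac, an adaptor protein of calcium channels, stood at 895 against 0 to 46.1 CPM, and the zinc finger factor Rreb1 at 787 against 21.6 to 33.2 CPM. Folh1, a glutamate carboxypeptidase, stood at 254 against 0 to 1.23 CPM. Oligodendrocytes carry Folh1 too, at 136 CPM and in 21.8% of their nuclei, whereas 44.3% of the Stac-Rreb1 members had a UMI of it.

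The serotonin receptor gene Htr4 stood at 1484 CPM in these nuclei against 93.5 to 566 CPM in the other 4 clusters. The kainate receptor gene Grik1 stood at 1460 against 11.0 to 65.2 CPM, the NMDA receptor subunit gene Grin3a at 692 against 17.6 to 67.7 CPM, and the phosphodiesterase gene Pde1a at 4018 against 28.8 to 834 CPM. The LIM homeobox factor Isl1, which acts in the development of striatonigral neurons, was found in 52.9% of them, at 245 CPM, and in at most 25.6% of the Drd3 nuclei of any other of the 5 clusters.

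Other genes, not all of them limited to striatal nuclei, were low in the Stac-Rreb1 members. The homeobox factor Meis2 had 5 UMIs in 70 nuclei (23.6 CPM), against 911 to 2765 CPM elsewhere. Pde10a, a phosphodiesterase of striatal projection neurons, stood at 895 against 3048 to 4798 CPM, and it also stood at 1641 CPM in excitatory nuclei. Erbb4, a neuregulin receptor on the interneuron list, stood at 188 against 1108 to 5205 CPM. Drd1 had 2 UMIs, in 2.86% of the nuclei, against 21.9% to 32.4% of Drd3 nuclei in the other 4 clusters. Not all listed striatal markers were low. Bcl11b stood at 636 CPM, above the 335 to 561 CPM of the other 4 clusters. Tac1, at 108 CPM, was also above all of them. Foxp2, at 1639 CPM, lay within their 892 to 3193 CPM. Pdyn, Penk and Ppp1r1b, also on that list, had 0, 1 and 2 UMIs and were lowest in the Stac-Rreb1 members. Of the 4 listed markers of island of Calleja granule cells, Drd3 was required by the rule, so its level is no support for a name. Folh1 was high in this cluster and Drd1 was low (9.42 CPM). Tshz1, at 70.7 CPM, lay within the 43.2 to 402 CPM of the other 4 clusters. The cluster was given no cell type name.

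The other 4 clusters differed among themselves. The Fign-Gfra1 members had Fign, a microtubule-severing protein, at 295 CPM, Gfra1, a GDNF receptor, at 309 CPM and Dpp10, a potassium channel subunit, at 8202 CPM, where the other 4 clusters had Dpp10 at 1093 to 2228 CPM. The Chst9-Vwc2l members had the transcription factors Foxp2 at 3193 CPM and Tshz1 at 402 CPM, and Erbb4 at 5205 CPM. Their 2 namesakes were found in few of them, Chst9 in 15.1% and Vwc2l in 35.6%. The Pde1c-Prkch members had the calmodulin-dependent phosphodiesterase gene Pde1c at 1239 CPM and the protein kinase C gene Prkch at 317 CPM. The Ebf1-Impg1 members had the factor Ebf1 at 237 CPM and the receptor kinase Ror1 at 317 CPM.

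Even the genes of the rule were split among the clusters. Gpr149, an orphan receptor, stood at 862, 346 and 529 CPM in the Stac-Rreb1, Fign-Gfra1 and Chst9-Vwc2l members and at 33.0 and 36.0 CPM in the Pde1c-Prkch and Ebf1-Impg1 members. Strip2 stood at 18.8 CPM in the Stac-Rreb1 members and at 251 to 302 CPM in the other 4, and the metalloprotease gene Adam12 at 11.0 CPM in the Chst9-Vwc2l members and 339 CPM in the Pde1c-Prkch members. The 3 genes thus differed in level among the clusters, and which of them admitted a given nucleus was not counted.

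**Figure D2:**
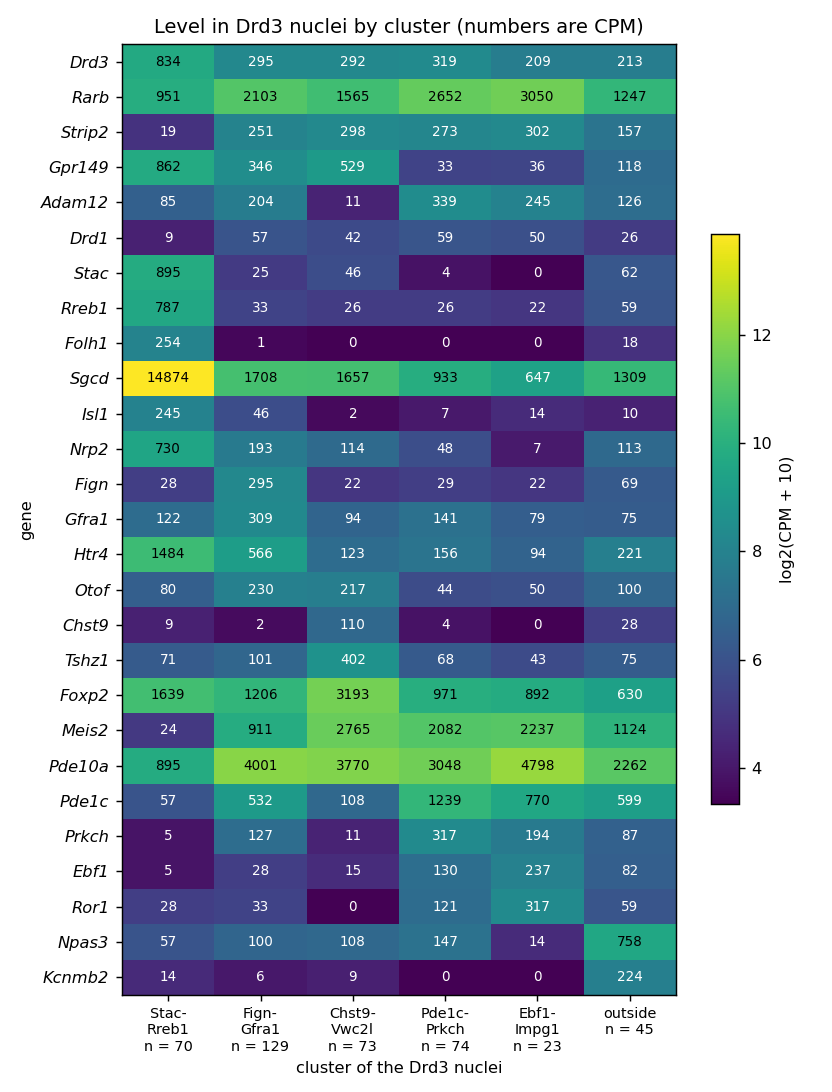
Levels of 27 genes (rows) in the Drd3 nuclei of each cluster (columns, with the number of Drd3 nuclei); the numbers are CPM and the colour is log2(CPM + 10). The Stac-Rreb1 column is high for Drd3, Stac, Rreb1, Folh1, Sgcd and Htr4 and low for Meis2 and Drd1, and the 45 nuclei outside the 5 clusters have the highest Npas3 (758 CPM) and Kcnmb2 (224 CPM).

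The 5 clusters were filled by all 4 libraries. The Stac-Rreb1 cluster took 14.9%, 17.3%, 17.3% and 17.4% of the Drd3 nuclei of Control 1, Control 2, CrT-KO 1 and CrT-KO 2. The Fign-Gfra1 cluster took 27.0%, 41.3%, 30.0% and 24.4%. The Pde1c-Prkch cluster varied most, with 23.0%, 6.73%, 26.0% and 12.8%, and each genotype held a high and a low library. The nuclei outside the 5 clusters took 9.46% and 11.5% in Control and 10.0% and 12.8% in CrT-KO.

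**Figure D3:**
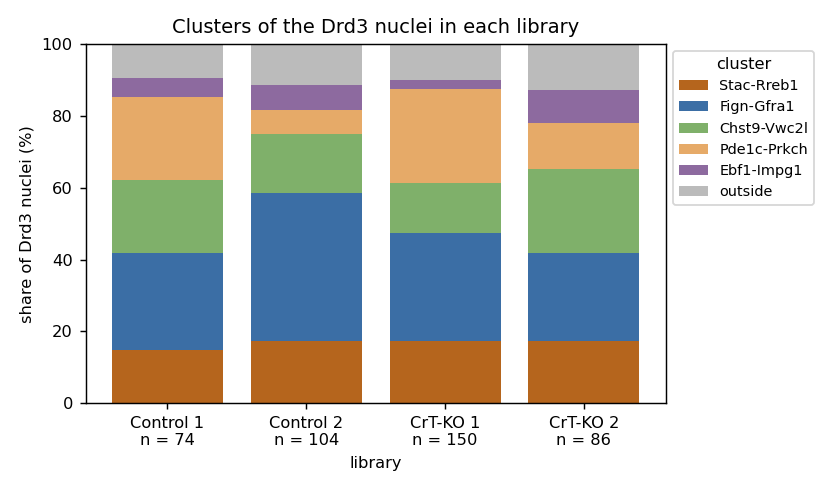
Clusters of the Drd3 nuclei in each library, as stacked percentages of the Drd3 nuclei of that library (n under each bar). The share of the Stac-Rreb1 cluster is 14.9% to 17.4% in the 4 libraries, and that of the Pde1c-Prkch cluster is 6.73% to 26.0% with both genotypes overlapping.

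The 45 Drd3 nuclei outside the 5 clusters stood apart in quality. Their median was 7738 UMIs, against 5308 in the 369 others, and all 17 doublets that Scrublet marked among the Drd3 nuclei were in them. Of the 45, 22 sat in 2 clusters of which 62.7% and 64.3% of nuclei were marked as doublets, with Rorb, a gene of excitatory neurons, among the leading genes of the first and Mog, a myelin gene, among those of the second.

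Drd3 nuclei were then compared with 2 neighbouring populations of GABAergic Rarb nuclei without Slc17a7. Drd1 nuclei (288) had at least 1 Drd1 UMI and none of Drd3, Drd2 or Adora2a. Drd2 nuclei (769) had Drd2 or Adora2a and neither Drd1 nor Drd3. UMIs were summed per library, so fewer nuclei of a kind and less RNA per nucleus cannot be told apart within a sum, and fitted with edgeR with the library as a block, so each comparison was made within 4 animals. Because Drd1 and Drd3 are sparse, a Drd1 nucleus may be a Drd3 cell whose Drd3 was missed. Of the Drd1 nuclei 28 fell in a cluster with Btbd11 and Eya4 among its leading genes, 16 in one led by Nos1 and Tacr1, both known from interneurons, and 210 in the 5 clusters of the Drd3 nuclei.

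Against Drd1 nuclei 681 of 5565 genes passed an adjusted p of 0.1, 318 higher and 363 lower in Drd3 nuclei (12.2% of the genes tested, 5.71% higher and 6.52% lower). Against Drd2 nuclei 1127 of 6966 passed, 560 higher and 567 lower (16.2%, 8.04% and 8.14%). The genes called in both numbered 438, which is 64.3% of the first list and 38.9% of the second, and 404 of them had the same direction, 216 higher and 188 lower. Both comparisons share the Drd3 nuclei, so the overlap is no measure of agreement. Of the 216 genes 205 were higher in all 4 libraries against both populations, and of the 188 genes 165 were lower.

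The 12 genes furthest above both populations, among those with at least 100 CPM, were Stac, Rreb1, Nrp2, Sgcd, Col11a1, Otof, Slco5a1, Itgb8, Gfra1, Fign, Tcerg1l and Chn2. Stac (chromosome 9, 111561437 to 111690348, minus strand) stood at 91.3, 85.7, 110 and 129 CPM in the Drd3 nuclei of the 4 libraries. It stood at 18.7 to 30.6 CPM in Drd1 nuclei and 5.62 to 14.8 CPM in Drd2 nuclei, so no libraries overlapped. Its log2 fold changes were 2.13 (SE 0.21, edgeR adjusted p = 1.68e-08) and 3.15 (SE 0.21, adjusted p = 8.44e-12). Rreb1 (chromosome 13, 37778400 to 37952005, plus strand) stood at 139, 79.4, 105 and 80.8 CPM against 16.2 to 27.1 and 7.87 to 29.4 CPM.

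The values of these first 2 genes rested on 1 cluster. Without the Stac-Rreb1 cluster the log2 fold change of Stac was 0.32 against Drd1 nuclei (adjusted p = 0.659) and 1.32 against Drd2 nuclei (adjusted p = 0.00343). That of Rreb1 was 0.54 (adjusted p = 0.341) and 0.71 (adjusted p = 0.0808). The other 10 kept adjusted p under 0.1 against both populations without that cluster, among them Tcerg1l at 0.69 and 1.15.

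Among those 10, Sgcd (chromosome 11, 46896253 to 47988969, minus strand) stood at 2325, 2398, 2725 and 2676 CPM, against 591 to 712 CPM in Drd1 nuclei and 522 to 702 CPM in Drd2 nuclei. Its log2 fold changes were 1.96 (SE 0.08, adjusted p = 3.66e-16) and 1.92 (SE 0.07, adjusted p = 5.70e-17), and 1.08 and 1.02 without the Stac-Rreb1 cluster. Nrp2, a receptor of semaphorins that guide axons, stood at 175, 181, 182 and 153 CPM against 23.4 to 63.6 and 26.6 to 36.1 CPM. Its log2 fold changes were 1.96 (SE 0.18) and 2.39 (SE 0.14).

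Col11a1, a fibrillar collagen chain, stood at 134, 141, 118 and 151 CPM, and the log2 fold change was 1.71 (SE 0.19) against Drd1 nuclei and 3.90 (SE 0.19) against Drd2 nuclei. Otof, a calcium sensor of vesicle release known from hair cells, stood at 170 and 227 CPM in Control and 106 and 120 CPM in CrT-KO. All 4 were above the 16.6 to 64.8 CPM of Drd1 nuclei and the 23.6 to 52.5 CPM of Drd2 nuclei. Gfra1 stood at 205, 168, 187 and 120 CPM, 1.44 (SE 0.16) above Drd1 and 3.81 (SE 0.21) above Drd2 nuclei on the log2 scale. Fign, the integrin subunit Itgb8, the organic anion transporter Slco5a1, Tcerg1l and the Rac GTPase activator Chn2 had log2 fold changes of 1.37 to 1.73 against Drd1 nuclei and 1.52 to 2.51 against Drd2 nuclei.

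The 12 genes furthest below both populations were Klhl1, Ror1, Cnr1, Chrm2, Tbc1d4, Ptprm, Chrm3, Dach1, Iqgap2, Oprd1, Gli3 and Gcnt2. Klhl1, a regulator of calcium channels, stood at 22.8, 22.2, 18.8 and 16.6 CPM in Drd3 nuclei, against 64.5 to 143 CPM in Drd1 nuclei and 125 to 148 CPM in Drd2 nuclei. Its log2 fold changes were -2.09 (SE 0.23, adjusted p = 1.23e-07) and -2.84 (SE 0.17, adjusted p = 3.84e-13). Cnr1, the cannabinoid receptor CB1, stood at 35.5, 31.7, 25.1 and 43.5 CPM, below the 91.8 to 119 CPM of Drd1 nuclei and the 78.7 to 117 CPM of Drd2 nuclei. Ror1 stood at 60.8, 42.9, 62.8 and 91.2 CPM against 177 to 344 and 166 to 264 CPM.

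Transmitter receptors were among the low genes. The muscarinic receptor gene Chrm3 stood at 122, 151, 126 and 126 CPM against 253 to 356 and 414 to 535 CPM. The delta opioid receptor gene Oprd1 stood at 30.4, 12.7, 6.28 and 16.6 CPM against 29.1 to 40.0 CPM in Drd1 nuclei, where libraries overlapped, and 81.1 to 112 CPM in Drd2 nuclei. The muscarinic receptor gene Chrm2 stood at 3.17 to 31.1 CPM in Drd3 nuclei and 63.2 to 194 CPM in Drd1 nuclei. Iqgap2 overlaps F2rl2 on the opposite strand and the counting is not stated to use strand, so its value is uncertain.

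Some of the low genes lost their call with other nuclei. With both populations held to the 5 clusters (369 against 210 nuclei), the log2 fold change of Chrm3 was -0.46 (adjusted p = 0.204) and that of the phosphatase gene Ptprm -0.26 (adjusted p = 0.674), and Chrm2 and Oprd1 were too low to fit. The other 8 low genes and all 12 high genes kept direction and adjusted p under 0.1. In that setting 544 of 4362 genes were called, and 308 of them were among the 681.

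**Figure D4:**
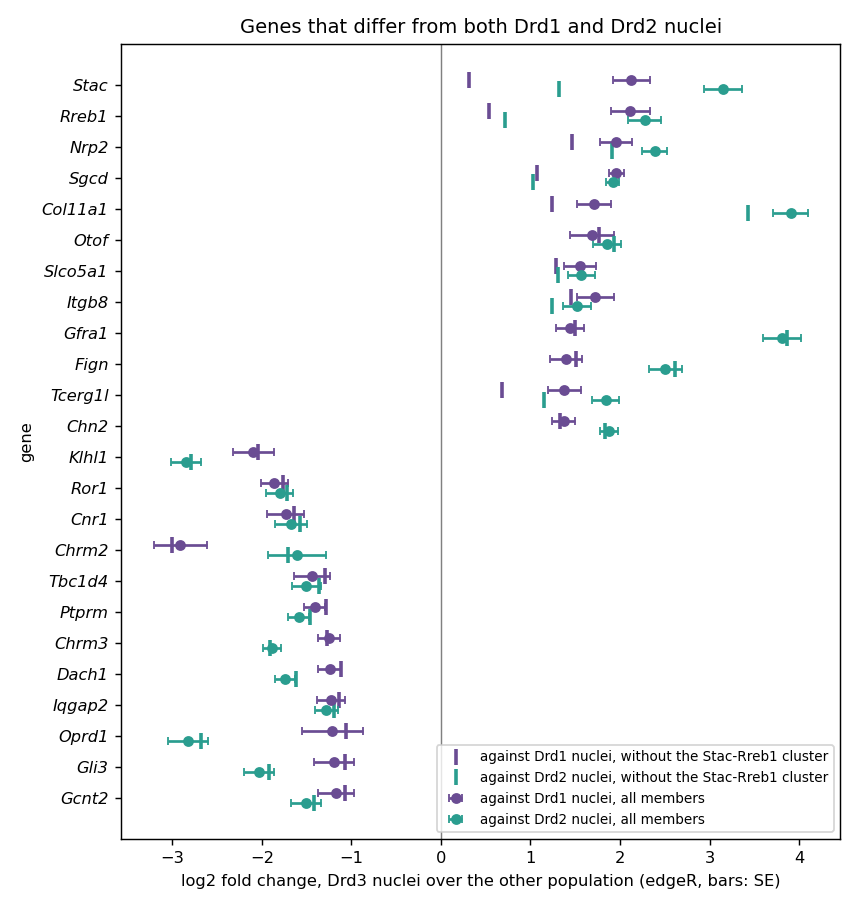
Log2 fold changes of Drd3 nuclei over Drd1 nuclei (purple) and Drd2 nuclei (green) for the 12 genes furthest above and the 12 furthest below both. Circles with bars are the edgeR estimates with SE over 4 libraries, vertical ticks the same without the Stac-Rreb1 cluster, which lie nearer to 0 for Stac (0.32 and 1.32), Rreb1 (0.54 and 0.71), Sgcd (1.08 and 1.02) and Tcerg1l (0.69 and 1.15).

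Gene groups from the lists are read beside the share of genes called, which rose with level: of genes with at least 300 CPM in Drd3 nuclei, 37.0% of 554 were called against Drd1 nuclei and 50.9% against Drd2 nuclei. Of the 1682 genes with at least 100 CPM the shares were 23.1% and 35.4%. Among striatal transcription factors 10 of 17 tested were called against Drd1 nuclei, 8 higher and 2 lower, with a median log2 fold change of 0.38 against 0.00 over all genes. Against Drd2 nuclei 15 of 19 were called, 10 higher and 5 lower (median 0.39). Foxp2 stood at 1706, 1436, 1355 and 1492 CPM, against 755 to 975 CPM in Drd1 nuclei and 238 to 288 CPM in Drd2 nuclei. Its log2 fold changes were 0.77 (SE 0.08, edgeR adjusted p = 6.87e-08) and 2.48 (SE 0.08, adjusted p = 2.34e-18).

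Isl1 stood at 17.7, 54.0, 41.8 and 37.3 CPM and was 1.35 (SE 0.33, adjusted p = 0.00513) above Drd1 nuclei on the log2 scale. With both held to the 5 clusters its log2 fold change was 0.87 (adjusted p = 0.134). Ebf1, a factor of striatonigral neurons, went the other way against the 2 populations. It stood at 33.0, 84.1, 70.1 and 45.6 CPM in Drd3 nuclei, below the 158 to 281 CPM of Drd1 nuclei (log2 -1.76, SE 0.17) and above the 1.12 to 5.35 CPM of Drd2 nuclei (log2 4.08, SE 0.31). Zbtb20 was higher against both, and Tshz1 was 0.91 (SE 0.16) and 1.94 (SE 0.15) higher.

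Of the neuropeptides and their receptors most were too low to test, and 4 of 5 tested were called against Drd1 nuclei (2 higher, 2 lower, median -0.25) and 6 of 9 against Drd2 nuclei (3 higher, 3 lower, median 0.40). Of the 4 calls against Drd1 nuclei 1, Tac1, held in the 5 clusters. Tac1 stood at 73.5, 58.7, 47.1 and 58.0 CPM, 1.07 (SE 0.23, adjusted p = 0.00151) above Drd1 nuclei and 4.45 (SE 0.33, adjusted p = 5.66e-11) above Drd2 nuclei on the log2 scale. Pdyn stood at 33.0, 12.7, 26.2 and 16.6 CPM against 0.70 to 2.25 CPM in Drd2 nuclei. Penk stood at 30.4, 36.5, 8.37 and 14.5 CPM, below the 89.3 to 159 CPM of Drd2 nuclei (log2 -2.55, SE 0.20). Within the Drd3 nuclei Penk was highest in the Chst9-Vwc2l cluster, at 61.4 CPM against 4.71 to 8.61 CPM in the other 4.

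Dopamine and cAMP signalling genes were called in 11 of 34 cases against Drd1 nuclei (7 higher, 4 lower, median 0.06) and in 22 of 36 against Drd2 nuclei (5 higher, 17 lower, median -0.26). Pde1a, which breaks down cyclic nucleotides under calmodulin control, stood at 999, 771, 969 and 837 CPM. It was 0.84 (SE 0.12) above Drd1 and 1.72 (SE 0.09) above Drd2 nuclei on the log2 scale. Pde10a was below both, by log2 fold changes of -0.21 (SE 0.07) and -0.59 (SE 0.06). Held to the 5 clusters, 5 of the 11 calls against Drd1 nuclei kept direction and threshold, and Pde1c turned from 0.27 to -0.36 (adjusted p = 0.0357).

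Glutamate receptor genes were called in 7 of 21 cases against Drd1 nuclei (3 higher, 4 lower, median -0.08) and 14 of 21 against Drd2 nuclei (3 higher, 11 lower, median -0.24). In the 5 clusters 3 of the 7 calls against Drd1 nuclei held and 1, Grik1, turned direction. Grik1 stood at 155, 186, 195 and 413 CPM and was below Drd1 nuclei (log2 -0.80, SE 0.15, adjusted p = 0.000327). In the 5 clusters alone it was 3.67 above them (adjusted p = 3.89e-08). Grm8, a presynaptic metabotropic receptor, was lower against both, with log2 fold changes of -1.27 (SE 0.16) and -1.05 (SE 0.11). GABA receptor and synapse genes were called in 3 of 20 cases against each population, with 1 higher and 2 lower against Drd1 nuclei, none of which held in the 5 clusters. Gabbr2, a subunit of the metabotropic GABA receptor, was -0.76 (SE 0.13) against Drd1 nuclei on the log2 scale.

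Ion channel genes were called in 18 of 48 cases against Drd1 nuclei (8 higher, 10 lower, median 0.00), of which 4 held in the 5 clusters, and 17 of 51 against Drd2 nuclei (6 higher, 11 lower, median -0.06). The calcium channel subunit gene Cacnb2 was lower against both, at 1711, 1567, 1389 and 1750 CPM in Drd3 nuclei against 1958 to 2336 and 3893 to 4988 CPM. Kcnc2, a fast potassium channel of interneurons, was -2.18 (SE 0.12) against Drd1 nuclei and 0.11 (adjusted p = 0.843) in the 5 clusters. Synaptic adhesion genes were called in 30 of 55 cases against Drd1 nuclei (9 higher, 21 lower, median -0.04), of which 18 held in the 5 clusters, and 33 of 56 against Drd2 nuclei (11 higher, 22 lower, median -0.19). Robo1, a receptor of the guidance protein Slit, stood at 4129, 4674, 4143 and 4473 CPM, 0.61 (SE 0.07) and 1.04 (SE 0.06) above the 2 populations on the log2 scale. Cdh13, a cadherin, was lower against both, by -1.16 (SE 0.11) and -0.59 (SE 0.10).

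The list of the retinoic acid pathway, to which Rarb belongs, also holds the related orphan receptors Rora and Rorb. Of this list 1 of 3 genes tested was called against Drd1 nuclei, Rora, and 2 of 5 against Drd2 nuclei, all lower. Those 2 were Rora and the retinoid X receptor gene Rxrg, which was near the threshold (log2 -0.48, SE 0.18, edgeR adjusted p = 0.0976). The nuclear receptor gene Rora stood at 1714, 1936, 1718 and 1920 CPM, with log2 fold changes of -0.52 (SE 0.07) and -0.91 (SE 0.07). None of 10 chaperone genes and none of 14 nuclear genes of oxidative phosphorylation was called against Drd1 nuclei (0 and 2 at an unadjusted p under 0.05 in edgeR), and 1 of 15 and 1 of 17 were called against Drd2 nuclei. Over all 5565 genes tested against Drd1 nuclei, 1031 had such an unadjusted p. Ckb, the 1 creatine gene called, was lower than in Drd2 nuclei, with a log2 fold change of -0.55 (SE 0.19, adjusted p = 0.0511). Of immediate-early genes, Homer1 alone was called, lower than in Drd2 nuclei.

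Interneuron markers moved with the choice of nuclei. Erbb4 stood at 2096, 2768, 2354 and 2595 CPM in Drd3 nuclei and 2776 to 3374 CPM in Drd1 nuclei, a log2 fold change of -0.38 (SE 0.08, adjusted p = 0.00114). In the 5 clusters alone it was 0.75 (adjusted p = 2.31e-06). Against Drd2 nuclei Erbb4 (1.88, SE 0.09) and Adarb2 (2.55, SE 0.18) were higher and Reln lower. Both differences were larger with the Drd3 nuclei held to the 5 clusters and the Drd2 nuclei to clusters made mostly of Drd2 nuclei, at 3.66 for Erbb4 and 4.75 for Adarb2.

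Between genotypes 1 of 5804 genes tested in the Drd3 nuclei passed an adjusted p of 0.1 (0.0172%), and 278 had an unadjusted p under 0.05 (edgeR quasi-likelihood test). DESeq2 also called 1. Of the 5804 genes, 1889 (32.5%) showed no overlap between the libraries of the 2 genotypes. The gene called was Npas3, a neuronal transcription factor of the bHLH-PAS family (chromosome 12, 53248677 to 54072175, plus strand, with no other counted gene over it).

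Npas3 had 48 and 62 UMIs in the Drd3 nuclei of Control 1 and Control 2 and 274 and 122 in those of CrT-KO 1 and CrT-KO 2. These are 122 and 98.4 CPM against 287 and 253 CPM, so both CrT-KO libraries were above both Control libraries. On the log2 scale CrT-KO was 1.34 higher (SE 0.18, adjusted p = 0.0110 in edgeR). The UMIs were unevenly spread, since the 5 nuclei with most Npas3 held 70.8% and 43.5% of them in Control and 61.7% and 69.7% in CrT-KO. Some Npas3 UMI was found in 18.9% and 28.8% of Drd3 nuclei in Control and 40.0% and 30.2% in CrT-KO.

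The call rested on the nuclei outside the 5 clusters, which held 295 of the 506 Npas3 UMIs (58.3%) in 45 of 414 nuclei. There Npas3 stood at 562 and 235 CPM in Control and 1153 and 794 CPM in CrT-KO. In the 369 nuclei of the 5 clusters it stood at 58.0 and 73.3 CPM in Control and 130 and 121 CPM in CrT-KO. The CrT-KO libraries were higher in both sets. In the 5 clusters the log2 fold change was 0.92 (SE 0.25, adjusted p = 0.432), and no gene was called there of 5301 tested (259 at an unadjusted p under 0.05 in edgeR). With at least 2 Drd3 UMIs per nucleus no gene was called either (180 of 4034 at an unadjusted p under 0.05), and Npas3 was at 1.32 (SE 0.36, adjusted p = 0.838).

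Besides Npas3, the genes with the smallest p are given by their values. Unc13a, which primes synaptic vesicles, stood at 137 and 135 CPM in Control and 70.1 and 64.3 CPM in CrT-KO (log2 -0.99, SE 0.21, adjusted p = 0.552). It overlaps Colgalt1 on the opposite strand. Kcnmb2, a subunit of calcium-activated potassium channels, stood at 12.7 and 20.6 against 60.7 and 47.7 CPM (1.67, SE 0.36, adjusted p = 0.552), and 87 of its 99 UMIs were in the 45 nuclei outside the 5 clusters. With the other 12 UMIs, in the 5 clusters, it stood at 14.5 and 1.88 CPM in Control and 4.94 and 5.16 CPM in CrT-KO, where the libraries overlapped. Bicc1, an RNA-binding protein, stood at 81.1 and 106 against 46.0 and 33.2 CPM (-1.20, SE 0.27, adjusted p = 0.555).

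Hspa4l, a heat shock protein, stood at 91.3 and 108 CPM in Control and 47.1 and 49.7 CPM in CrT-KO (-1.06, SE 0.24, adjusted p = 0.625). Otof stood at 170 and 227 against 106 and 120 CPM (-0.84, SE 0.20, adjusted p = 0.632), and Dpyd, which degrades pyrimidines, at 144 and 127 against 246 and 180 CPM (0.70, SE 0.19, adjusted p = 0.947). Penk stood at 30.4 and 36.5 against 8.37 and 14.5 CPM (-1.67, SE 0.45, adjusted p = 0.947). Ccar2 (0 and 4 against 25 and 12 UMIs) and Rsph10b (4 and 5 against 28 and 16 UMIs) were sparse and overlap other counted genes. In all of these, taken over all Drd3 nuclei, the libraries of the 2 genotypes did not overlap, which 32.5% of all genes shared.

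**Figure D5:**
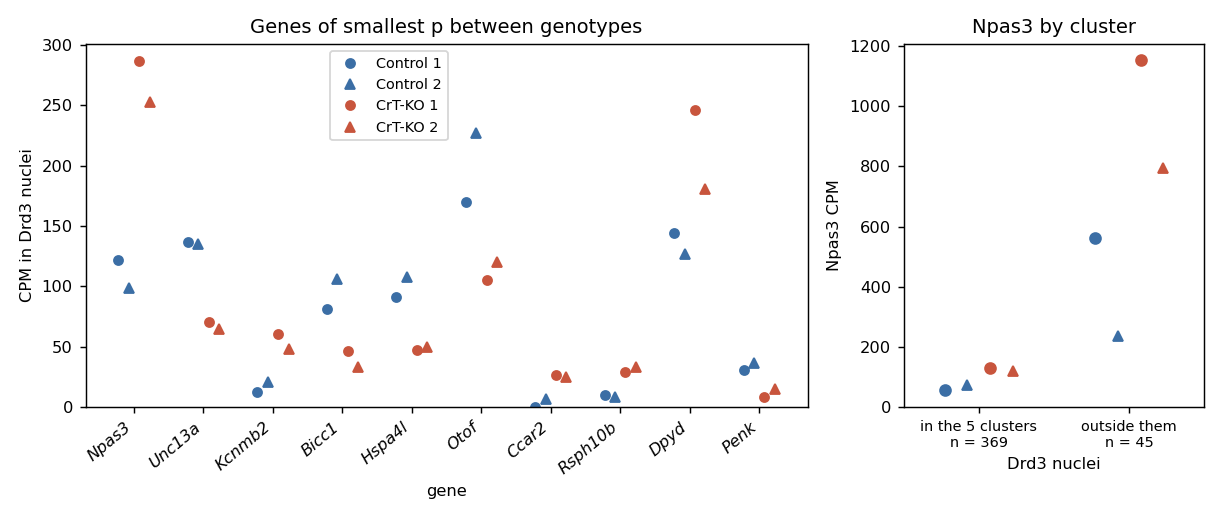
Left, CPM in the Drd3 nuclei of each library (circles and triangles are replicates 1 and 2, blue Control, red CrT-KO) for the 10 genes with the smallest p between genotypes. Right, Npas3 in the Drd3 nuclei of the 5 clusters and in the 45 outside them, where the CrT-KO libraries stand at 1153 and 794 CPM and the Control libraries at 562 and 235 CPM.

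No gene of the lists was called between genotypes. Over all 5804 genes tested, 278 had an unadjusted p under 0.05 in edgeR. Of 34 genes of dopamine and cAMP signalling 3 had an unadjusted p under 0.05 (median log2 fold change -0.04), of 55 synaptic adhesion genes 5 (0.02), of 49 channel genes 2 (-0.01), of 21 glutamate receptor genes 2 (0.05), of 19 GABA genes 0 (-0.04) and of 17 striatal transcription factors 1 (0.00), where the median over all genes was 0.00. Among 13 chaperone genes 2 had such a p and the median was -0.43. Of 16 nuclear genes of oxidative phosphorylation 0 had such a p (median 0.07). Of the genes of the rule, Drd3 stood at 317 and 324 against 327 and 342 CPM and Gpr149 at 215 and 297 against 355 and 332 CPM. Neither showed overlap, which was also so for 32.5% of all genes tested. Strip2 (286 and 189 against 229 and 249 CPM), Adam12 (180.0 and 195 against 185 and 114 CPM) and Rarb (2200 and 1816 against 1827 and 2029 CPM) overlapped.

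Markers of other cells were read between genotypes as well. Astrocyte markers summed to 43.1 and 39.7 CPM in Control and 69.0 and 108 CPM in CrT-KO, with CrT-KO higher, while oligodendrocyte markers (210 CPM in Control 1 and 87.9 to 120 CPM in the other 3 libraries) and excitatory markers (695 and 743 against 842 and 638 CPM) overlapped. Microglia markers summed to 55.8 and 36.5 CPM in Control and 32.4 and 35.2 CPM in CrT-KO, with CrT-KO lower and no overlap. Of single genes 32.5% showed no overlap either. Gene by gene, 278 of all 5804 genes tested had an unadjusted p under 0.05 in edgeR. Of 3 excitatory markers tested 2 had such a p (median log2 fold change 0.72). The same held for 1 of 1 astrocyte marker (1.01) and 0 of 2 oligodendrocyte markers (median -0.59). The part of these markers in the genotype values was not tested.

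To ask whether the genotype difference was particular to the Drd3 nuclei, it was set against that in Drd1 nuclei as an interaction. Of 6268 genes 1 was called (0.016%), Npas3 again, with a difference of 1.67 on the log2 scale (SE 0.26, edgeR adjusted p = 0.00205). In Drd1 nuclei Npas3 stood at 447 and 437 CPM in Control and 475 and 232 CPM in CrT-KO, with 92.2% of the UMIs in the 78 Drd1 nuclei outside the 5 clusters. In the 210 Drd1 nuclei of the 5 clusters, with 61 UMIs, Npas3 stood at 36.6 and 24.5 CPM in Control. There the CrT-KO libraries were at 66.6 and 62.9 CPM, above both Control libraries as in the Drd3 nuclei of these clusters. With both populations held to the 5 clusters the difference was -0.15 (SE 0.46, adjusted p = 0.991). Slc6a8 held 13 UMIs in Drd3 nuclei and 4 in Drd1 nuclei, too few for this test.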

How the data were processed

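Nuclei of 4 libraries were sorted by flow cytometry (15000 per library) and prepared with a 10x Genomics 3' kit by the authors. The deposited matrices hold UMI counts per gene and nucleus, made by the authors with Cell Ranger 3.1.0 on a reference of GRCm38 (mm10) in which each gene was a single exon from start to end, so that unspliced RNA counts too; per the labels, Seurat 3.1.4 and FastQC were also used. The counts were not normalized. Use of strand is not given in the sources used here.

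The members and gene lists were chosen with earlier results of these data known. Nuclei were taken by raw UMIs, with no other filter; doublets were marked by Scrublet (scanpy 1.11.5) and kept, and their removal was an alternative. Sums of UMIs for each population in each library were tested with edgeR 4.0.16 (R 4.3.3; TMM, filterByExpr, quasi-likelihood test, Benjamini-Hochberg adjustment over all genes tested, threshold 0.1); fits between populations had the library as a block and left out the genes of the gates. DESeq2 1.42.0 was an alternative. CPM are over all UMIs of the population in a library, and standard errors are the fold change divided by the root of its F value. Genes named between genotypes were those called with libraries that did not overlap, plus the 10 of smallest p. Between populations they were those called the same way against both, in the same direction in all 4 libraries, with at least 100 mean CPM, up to 12 each way by the smaller fold change. Members of the lists with the largest fold change were named too. Genes given only by cluster, such as Dpp10, Grin3a and Htr4, were chosen after their values were seen.

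Clustering used 2000 variable genes, 20 components, 15 neighbours and Leiden resolution 0.5. A cluster's leading genes were ranked by log2 fold of CPM plus 10 among genes in at least 20% of its nuclei. Sums, with 200 genes changed, were tested on simulated data: between genotypes 67% of genes changed by 1 on the log2 scale and 94% of those changed by 2 were recovered among 5553 genes (19 false calls), and against Drd1 nuclei 80% and 89% among 5377 genes (15 false calls). The changed genes were drawn from those with a mean of at least 10 UMIs, and all genes were given 1 common dispersion. Recovery of sparser genes, or of genes more variable than that, was not tested. Replicates differed by more than sampling noise (chi-square per degree of freedom 1.93 in Control and 1.78 in CrT-KO). Coordinates are from GENCODE vM21, 1-based, on GRCm38. Some results are not reported here.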

Additional observations from a re-analysis of the deposited data

Results flagged for a closer look

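The genotype difference of Npas3 differed between Drd3 and Drd1 nuclei by 1.67 on the log2 scale (SE 0.26), the 1 gene of 6268 past the threshold in a test of the difference itself (edgeR interaction, adjusted p = 0.00205). In Drd3 nuclei both CrT-KO libraries were above both Control libraries, and in Drd1 nuclei CrT-KO 1 was the highest and CrT-KO 2 the lowest of the 4. In the Drd1 nuclei of the 5 clusters, both CrT-KO libraries (66.6 and 62.9 CPM) were above both Control libraries (36.6 and 24.5 CPM). The 5 nuclei with most Npas3 held 43.5% to 70.8% of its UMIs in the Drd3 nuclei of a library and 58.1% to 88.6% in the Drd1 nuclei. DESeq2 gave a difference of 1.72 (adjusted p = 0.564), removal of doublets 1.74 (adjusted p = 0.228) and at least 3 Rarb UMIs per nucleus 1.53 (adjusted p = 0.422). Held to the 5 clusters the difference was -0.15, smaller than its SE, and it was not called. Groups of 2 libraries are too small for a check of single outlying libraries.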

How the results depend on the processing

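Settings that use clusters or at least 3 Rarb UMIs were added after the data were seen. Of the genotype results, 1 gene was called as reported, 9 with no low-count filter, 11 with a replicate block, 4 with no condition on Strip2, Gpr149 or Adam12, 0 with at least 2 Drd3 UMIs and 0 in the 5 clusters; leaving out 1 library gave 3 to 27 (13 without Control replicate 1, 27 without Control replicate 2, 14 without CrT-KO replicate 1, 3 without CrT-KO replicate 2), and such fits assume that the lone library varies like the others. DESeq2, its size factors, doublet removal, at least 3 Rarb UMIs, removal of the Stac-Rreb1 cluster and a threshold of 0.05 each gave 1. Npas3 was called in 13 of 15 of these fits. Deviations of same-numbered libraries from their group means correlated at 0.0582. With 2 libraries per genotype both numbers must give the same value. It therefore cannot show whether the numbers pair the animals, and the block is a description. Against Drd1 nuclei 681 genes became 332 with DESeq2 and 438 with nuclei of like depth (569 to 621 without 1 library), and against Drd2 nuclei 1127 became 580 with DESeq2 (850 to 1104 without 1 library). The interaction called 1 gene, 0 with DESeq2 (13 at an unadjusted p under 0.05), 0 without doublets (268), 0 with at least 3 Rarb UMIs (244), 0 in the 5 clusters (189), 8 with no filter and 1 to 16 without 1 library (16 without Control replicate 1, 13 without Control replicate 2, 8 without CrT-KO replicate 1). Npas3 in that test stood at -0.15 in the 5 clusters, smaller than its SE, so its direction there is not known. The difference in share was -0.0341 to 0.612 percentage points without 1 library, negative without CrT-KO replicate 1, and the smallest p possible was 0.333. Slc6a8 stayed negative in all 11 alternatives, from -3.06 to -1.10, with no adjusted p under 0.1. Of 619 refits of the 24 genes named between populations, none turned direction and 7 lost the threshold. The cause was not tested. At this depth the Drd3 nuclei held 13 UMIs of Slc6a8.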

Other observations

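Some values belong to no comparison. In Drd2 nuclei Npas3 stood at 206 and 179 CPM in Control and 406 and 190 CPM in CrT-KO, so the libraries overlapped. Drd1 nuclei made up 0.785% and 0.710% of all nuclei in Control and 0.863% and 0.870% in CrT-KO, and Drd2 nuclei 2.58% and 2.22% against 2.19% and 1.65%, both without overlap of the libraries (exact permutation test, p = 0.333, the smallest this design gives). Of the 1035 nuclei that met every condition but Drd3, 243 and 252 were in Control and 303 and 237 in CrT-KO. Thinned to 3000 UMIs per nucleus, with 2200 to 2731 shallower nuclei left out per library, Drd3 nuclei made up 0.526% and 0.838% in Control and 1.08% and 0.603% in CrT-KO, an order of libraries like that of the full counts.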
